A study of Komagataella pastoris with 6 samples.

Results

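Ribonucleotide reductase, or ribonucleoside-diphosphate reductase, makes the building blocks of DNA, and the yeast *Komagataella phaffii* has a pair of genes annotated for its alpha subunit, also called the large subunit. The first is on chromosome 1 (BQ9382_C1-3085's annotation is that of the alpha subunit) and is called RNR-C1 here, and the second is on chromosome 2 (BQ9382_C2-5895's annotation is the same) and is called RNR-C2, after the chromosome in each locus tag. They are 2 of the 5427 genes in the count table, and both passed the filter on low counts, as did 5426 genes in all. They were chosen by their transcript levels in the 3 culture groups, which were already known to differ in opposite directions. Their levels, ratios and fold changes below come from the same libraries and are therefore a description, without p-values. No threshold separated them from other genes. A search of all gene descriptions for this enzyme found 3 rows, which are this pair and BQ9382_C4-4275, described as a small chain of the reductase and called RNR-C4 here.

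Ribonucleotide reductase converts ribonucleotides to deoxyribonucleotides, the precursors of DNA. The large subunit carries the catalytic site and the sites at which nucleotides regulate the enzyme, and the small subunit carries the iron centre and the tyrosyl radical that start each reaction. Thioredoxin or glutaredoxin then returns the large subunit to its reduced state. In *Saccharomyces cerevisiae* the large subunit is encoded by *RNR1*, which is transcribed mainly as cells enter S phase, and by its paralog *RNR3*, which is induced by DNA damage and replication stress. There the repressor Rfx1, known as Crt1, recruits the corepressors Tup1 and Cyc8 to damage-inducible *RNR* genes, and the kinases Mec1 and Rad53 act through Dun1 to relieve that repression. The annotation does not say which of the *K. phaffii* genes corresponds to *RNR1* and which to *RNR3*.

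Transcripts were measured by RNA-seq in 6 libraries named A to F, with 2 libraries in each of 3 groups, all from cells cultured for 24 h. The groups are *GS115*, a *his4* histidine auxotroph, in YPA (*GS115*-YPA, libraries A and B), the histidine prototroph *X33* in YPA (*X33*-YPA, libraries C and D), and the same auxotroph in YPA supplemented with histidine to 650 µM (*GS115*-YPAH5x, libraries E and F). YPA is a medium of yeast extract, peptone and acetate, so every group had acetate as the carbon source. Yeast extract and peptone bring amino acids, so the control lacked added histidine rather than all histidine. *HIS4* encodes histidinol dehydrogenase, an enzyme of histidine biosynthesis. The comparisons address how transcript levels differ when histidine is made by the cell or supplied in the medium. The paper reports that *GS115* grew less well than *X33* in YPA and that added histidine restored its growth. Growth thus varied along with histidine between the control and both other groups, and their effects cannot be told apart here. The labels give *GS115* the genotype *his4* but also describe it as wild type, name the organism *Komagataella pastoris*, and give no batch or date. They do not say that the libraries of a group came from separate cultures, so p-values measure the spread between these libraries, which may be technical. *X33* is another strain, so the comparison of *X33*-YPA with *GS115*-YPA is a comparison of strains as well as of *HIS4*. The paper states that *HIS4* is the single locus at which they differ, which was not checked here. It also reports that expressing *HIS4* in *GS115* reversed the growth defect in YPA, but no library here came from such cells. The same GS115-YPA libraries serve both comparisons with the control.

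Library totals ranged from 32194047 to 43447246 counts. Duplicates differed by more than sampling noise in each group, by a chi-square of their counts that was between 40.9 and 141 times its degrees of freedom. The 10 most abundant genes took 27.5% and 28.5% of the counts of the *GS115*-YPA libraries and between 21.4% and 23.1% in the other 4 libraries. Levels are given as CPM, which are counts relative to the library total, scaled by TMM, a method that sets libraries on a common scale from genes with moderate differences. Gene lengths were not used here, so levels of different genes are not compared, and only the change of a ratio between libraries is read.

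RNR-C1 was low in *GS115* without added histidine and over 10-fold higher in both other groups. In the *GS115*-YPA libraries A and B it stood at 15.3 and 16.9 CPM, from 589 and 736 reads. In the *X33*-YPA libraries C and D it stood at 280 and 293 CPM, from 10012 and 12860 reads. In the *GS115*-YPAH5x libraries E and F it stood at 306 and 262 CPM, from 11954 and 8961 reads. The control libraries did not overlap with either other group, while the *X33*-YPA values lay between those of *GS115*-YPAH5x. The share of all genes whose groups did not overlap was not computed. Overlap, here and below, is therefore only a description of the libraries.

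The mean CPM of RNR-C1 was 16.1 ± 1.07 (SD, n = 2 in each group) for *GS115*-YPA, 286 ± 8.95 for *X33*-YPA and 284 ± 31.0 for *GS115*-YPAH5x. In *X33*-YPA the fitted level was 17.8-fold that of *GS115*-YPA, a log2 fold change of 4.15 (SE 0.16), and 9 of the 5426 genes tested had a larger one. In *GS115*-YPAH5x it was 17.6-fold that of *GS115*-YPA, a log2 fold change of 4.14 (SE 0.16), and 5 genes had a larger one. Between *X33*-YPA, which can make histidine, and *GS115*-YPAH5x, which was given it, the log2 difference was 0.01 (SE 0.14). In order of level *GS115*-YPA was lowest, and the other groups did not differ beyond their spread.

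RNR-C2 went the other way and was highest in *GS115*-YPA. Libraries A and B held 51.5 and 43.3 CPM, from 1978 and 1891 reads. Libraries C and D held 14.6 and 11.1 CPM, from 520 and 488 reads. Libraries E and F held 20.9 and 20.6 CPM, from 818 and 704 reads. No pair of groups overlapped, and the *GS115*-YPAH5x libraries lay between the control and *X33*-YPA.

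The mean CPM of RNR-C2 was 47.4 ± 5.80 (SD, n = 2 in each group) for *GS115*-YPA, 12.8 ± 2.43 for *X33*-YPA and 20.8 ± 0.244 for *GS115*-YPAH5x. Relative to *GS115*-YPA the fitted level was 3.70-fold lower in *X33*-YPA, a log2 fold change of -1.89 (SE 0.17), and 285 genes had a more negative one. It was 2.285-fold lower in *GS115*-YPAH5x than in *GS115*-YPA, a log2 fold change of -1.19 (SE 0.17), and 507 genes had a more negative one. Unlike its partner, RNR-C2 also differed between *X33*-YPA and *GS115*-YPAH5x, with a log2 difference of -0.70 (SE 0.17) for the former against the latter. That difference was -0.42 when libraries were scaled by their totals alone and -0.90 without *X33*-YPA library C. The counting error of single libraries was at most 4.53% for this gene and 4.12% for RNR-C1, so it is small beside these differences.

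**Figure D1:**
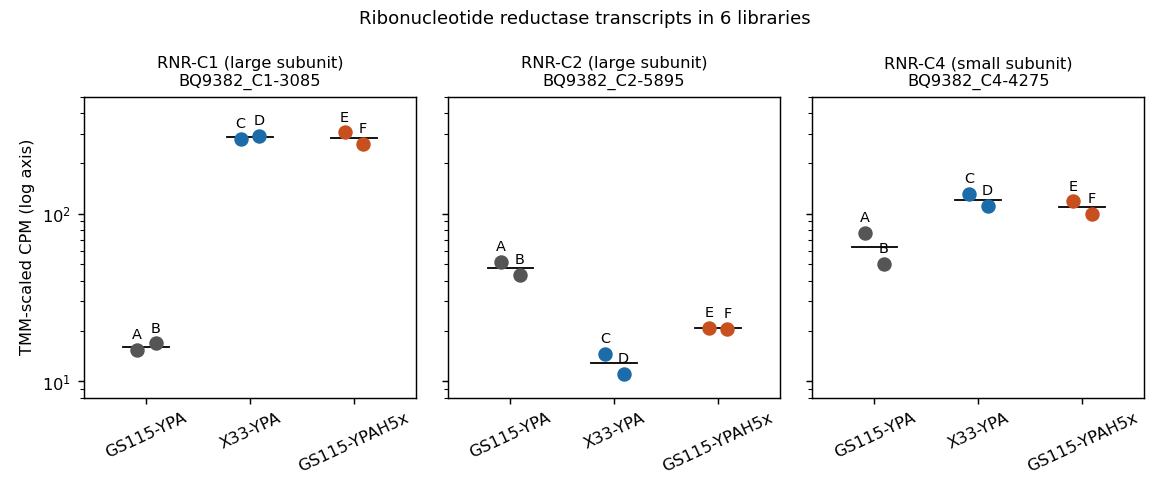
TMM-scaled CPM (log axis) of the large subunit genes RNR-C1 and RNR-C2 and of the small subunit gene RNR-C4, with 1 point for each library A to F and a line at the group mean (n = 2). RNR-C1 stood at 15.3 and 16.9 CPM in *GS115*-YPA and at 262 to 306 CPM elsewhere, RNR-C2 was highest in *GS115*-YPA, and RNR-C4 spanned 50.5 to 132 CPM.

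With an adjusted p under 0.05 and a log2 change of 2 or more in size (edgeR), *X33*-YPA had 2.54% of all genes tested above *GS115*-YPA and 4.26% below it. In *GS115*-YPAH5x against *GS115*-YPA these shares were 2.62% and 2.71%. Between *X33*-YPA and *GS115*-YPAH5x they were 0.0369% and 0.737%. These shares are background for the values above, and nothing is read from them about the pair, since the same contrasts chose it. In bulk RNA, fewer cells that express a gene and less of its RNA per cell cannot be told apart.

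The balance of reads between the large subunit genes shifted towards RNR-C1 in *X33*-YPA and *GS115*-YPAH5x. The count of RNR-C1 divided by that of RNR-C2 was 0.298 in library A and 0.389 in library B. It was 19.25 and 26.35 in libraries C and D, and 14.6 and 12.7 in libraries E and F. Scaling between libraries does not enter this ratio, and an unknown difference in gene length cancels when it is compared between libraries. Its geometric mean was 66.2-fold higher in *X33*-YPA and 40.1-fold higher in *GS115*-YPAH5x than in *GS115*-YPA. Between *X33*-YPA and *GS115*-YPAH5x it differed 1.65-fold, and their libraries did not overlap.

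As a share of the reads of both genes, RNR-C1 took 22.9% (exact Clopper-Pearson 95% interval 21.3 to 24.6) and 28.0% (26.3 to 29.8) in the *GS115*-YPA libraries. Its share was 95.1% and 96.3% in libraries C and D and 93.6% and 92.7% in libraries E and F. The intervals cover counting error only, and those of libraries A and B do not overlap, so the duplicates of the control differed by more than counting error. The sum of both genes was 66.9 and 60.2 CPM in A and B, 295 and 304 CPM in C and D, and 327 and 283 CPM in E and F. Large subunit reads as a whole were therefore more numerous in *X33*-YPA and *GS115*-YPAH5x than in the control, although RNR-C2 supplied fewer of them.

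Reads that fit both genes, if any, could have been divided between them in counting, since the treatment of such reads is not given in the sources used here. Each row has its own KEGG orthology term, RRM1 for RNR-C1 and nrdA for RNR-C2, and each term was given to no other row. Both carry the same set of GO terms, which name ATP binding, the reductase activity with thioredoxin disulfide as acceptor, and DNA replication.

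The small subunit gene RNR-C4, which the choice of the pair did not use, was also higher in *X33*-YPA and *GS115*-YPAH5x, with smaller fold changes than RNR-C1. Its level was 76.7 and 50.5 CPM in A and B, 132 and 111 CPM in C and D, and 119 and 99.6 CPM in E and F. Its control libraries differed more than those of the other groups but did not overlap with them. It rose in *X33*-YPA with a log2 fold change of 0.93 (SE 0.20, edgeR adjusted p = 0.00248) and in *GS115*-YPAH5x with 0.78 (SE 0.20, edgeR adjusted p = 0.00799). Between those groups its libraries overlapped, with a log2 difference of 0.15 (SE 0.20, edgeR adjusted p = 0.562).

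Set against this small subunit gene, the counts of the large subunit genes shifted in opposite directions. The count of RNR-C1 divided by that of RNR-C4 was 0.200 and 0.334 in A and B, 2.12 and 2.64 in C and D, and 2.58 and 2.63 in E and F. For RNR-C2 this ratio was 0.672 and 0.858 in A and B, 0.110 and 0.100 in C and D, and 0.176 and 0.207 in E and F. The reads of both large subunit genes together, divided by those of the small subunit gene, gave 0.872 and 1.19 in the control and between 2.23 and 2.84 in the other 4 libraries. The control libraries did not overlap with the other groups in any of these ratios.

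**Figure D2:**
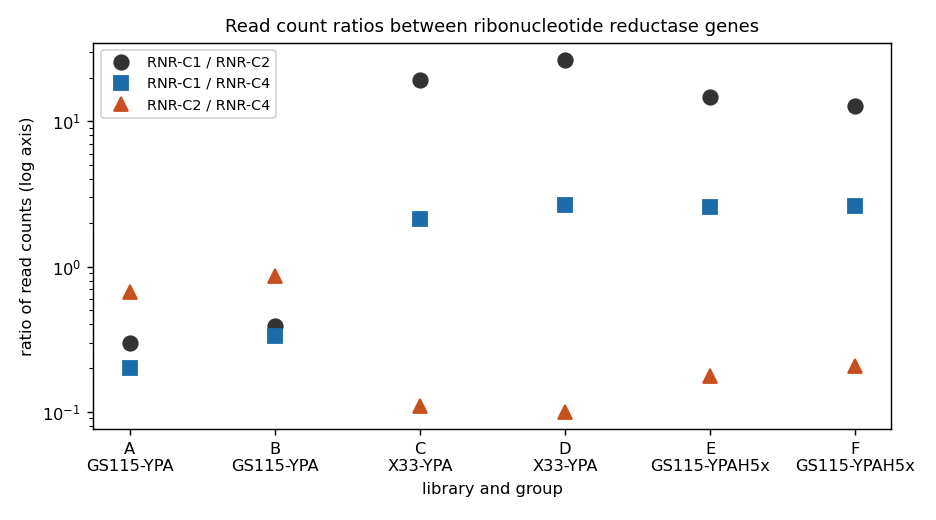
Ratios of read counts (log axis) between RNR-C1, RNR-C2 and the small subunit gene RNR-C4, with 1 point for each ratio in each library A to F. RNR-C1 over RNR-C2 was 0.298 and 0.389 in libraries A and B and lay between 12.7 and 26.35 for C to F.

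The genes that in *S. cerevisiae* regulate *RNR* transcription or act in the S phase checkpoint did not move as a group. Of the 18 in this list, 8 rose and 7 fell in *X33*-YPA, where 33.4% of all genes tested rose and 32.8% fell at an adjusted p under 0.05 at any fold (edgeR). In *X33*-YPA the number that fell was smaller whenever any single library was left out. The number that rose there became smaller or larger, and was smaller without library D. The list's median log2 fold change was 0.34, beside 0.01 over all genes. In *GS115*-YPAH5x 7 rose and 3 fell, where 30.7% of all genes rose and 29.1% fell, and the median was 0.22 beside a median of all genes near 0. Between *X33*-YPA and *GS115*-YPAH5x 1 was higher and 4 were lower, beside 19.8% and 21.6% of all genes, but 7 were higher and 3 lower with library totals alone as the scaling, and 0 were higher without library D or F. The lists are taken from descriptions in the count table, and none of these comparisons uses the large subunit genes themselves.

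The repressor and corepressor genes gave mixed values. BQ9382_C2-0880, annotated as the repressor RFX1, rose in *X33*-YPA with a log2 fold change of 0.63 (edgeR adjusted p = 0.0030) and in *GS115*-YPAH5x with 0.77 (0.00114). BQ9382_C2-2800, annotated as the corepressor CYC8, rose with 0.64 (edgeR adjusted p = 0.00178) and 1.43 (1.5e-05). BQ9382_C3-0960, annotated as TUP1, rose with 0.39 (edgeR adjusted p = 0.0235) and 0.50 (0.00801), and adjusted p reached 0.149 and 0.102 when single libraries were left out or the scaling was changed. BQ9382_C1-2285 has the same protein name as BQ9382_C2-2800, a general corepressor that acts together with Tup1p, but went the other way in *X33*-YPA. BQ9382_C1-2285 fell in *X33*-YPA with -1.15 (edgeR adjusted p = 0.00411) and rose in *GS115*-YPAH5x with 1.15 (0.00492). Libraries A and B held 205 and 396 CPM of it, C and D 118 and 152, and E and F 614 and 723, so no groups overlapped.

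BQ9382_C3-0805 is the row described directly as a transcriptional regulator of *RNR2* and *RNR3*, and it was lower in *X33* than in *GS115* in either medium. Libraries A and B held 88.9 and 86.7 CPM, C and D 34.1 and 34.0, and E and F 59.6 and 86.8. The log2 fold change was -1.36 in *X33*-YPA (SE 0.18, edgeR adjusted p = 9.4e-05) and -0.26 in *GS115*-YPAH5x, which did not pass the test (edgeR adjusted p = 0.216). *X33*-YPA against *GS115*-YPAH5x gave -1.10 (edgeR adjusted p = 0.00153). RNR-C2 was likewise lowest in *X33*-YPA, but it differed from the control in *GS115*-YPAH5x by -1.19, where this gene did not pass.

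The checkpoint genes differed in direction within 1 pathway. BQ9382_C2-1725, annotated as the sensor kinase MEC1, rose by log2 values of 1.58 (*X33*-YPA, edgeR adjusted p = 3.3e-05) and 0.95 (*GS115*-YPAH5x, 0.00109). BQ9382_C1-0750, annotated as its relative TEL1, rose with 0.80 (edgeR adjusted p = 5.8e-04) and 0.61 (0.00356). BQ9382_C3-0450, annotated as the effector kinase RAD53, fell with -1.04 (edgeR adjusted p = 1.2e-04) and -1.32 (3.9e-05). The fork proteins that carry the signal also split: BQ9382_C1-3335, annotated as MRC1, rose with 1.23 and 1.65, and BQ9382_C2-0040, annotated as TOF1, fell with -1.71 and -1.98. BQ9382_C1-7880, annotated as the clamp subunit DDC1, fell with -1.16 and -0.94. The call of BQ9382_C3-3290, a DNA damage checkpoint protein with 0.82 in *X33*-YPA, was lost without library D (adjusted p = 0.0932), and those of the rows annotated as RAD24, MEC3 and CHEK1 were lost under several settings.

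Genes of dNTP and thymidylate synthesis, which include nucleotide kinases and enzymes of folate and nucleotide clearance, changed in either direction. In *X33*-YPA 7 of the 13 rose and 4 fell (53.85% and 30.8%, beside 33.4% and 32.8% of all genes), around a median log2 change of 0.69. In *GS115*-YPAH5x 5 rose and 3 fell (38.5% and 23.1%, beside 30.7% and 29.1%), around a median of 0.04. In *GS115*-YPAH5x these counts became 3 and 5 with library totals alone as the scaling. The number that rose there was smaller whenever any single library was left out, and fewer fell without library E.

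Named enzymes of that list differed widely. BQ9382_C2-4395, dUTPase, which removes dUTP and supplies dUMP, was at 20.8 and 18.4 CPM in A and B, 64.1 and 80.7 in C and D, and 50.7 and 56.6 in E and F. It rose with log2 fold changes of 1.89 (edgeR adjusted p = 6.2e-06) and 1.45 (4.0e-05). BQ9382_C1-2450, dCMP deaminase, another source of dUMP, rose with 1.43 (edgeR adjusted p = 3.6e-04) and 1.14 (0.00191). BQ9382_C3-5075, an adenylate kinase, rose with 1.34 and 0.98. BQ9382_C3-0985, thymidylate synthase, which turns dUMP into dTMP, had 0.29 in *X33*-YPA (edgeR adjusted p = 0.261) and 0.67 in *GS115*-YPAH5x (0.0206, and 0.112 at most when a library was left out or the scaling changed). BQ9382_C1-5560, dihydrofolate reductase, which restores the folate used in that step, rose in *X33*-YPA with 1.19 (edgeR adjusted p = 0.00254), and its call in *GS115*-YPAH5x (0.69, adjusted p = 0.0444) was lost under 7 settings. BQ9382_C3-0395, an inosine triphosphate pyrophosphatase that clears damaged nucleotides, fell with -1.15 and -0.67, the latter not without library E (adjusted p = 0.0687).

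Some nucleotide kinases, which phosphorylate nucleotides before and after the reductase step, separated *X33*-YPA from *GS115*-YPAH5x. BQ9382_C2-0310, nucleoside diphosphate kinase, had log2 fold changes of 0.85 in *X33*-YPA (edgeR adjusted p = 4.9e-04) and 0.07 in *GS115*-YPAH5x (0.684). BQ9382_C2-1270, guanylate kinase, had 0.69 (edgeR adjusted p = 0.00286) and -0.38 (0.0571). The direct comparison of *X33*-YPA with *GS115*-YPAH5x gave 0.78 and 1.07 for these kinases, both past the test. Their order was unlike that of RNR-C2, which was lowest in *X33*-YPA, and of RNR-C1, whose values overlapped in those groups.

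The electron donor genes of the reductase gave few calls in *X33*-YPA and more lower than higher calls in *GS115*-YPAH5x. Of 12 genes for thioredoxins, glutaredoxins, their reductases and cofactor assembly, the test called 2 higher and 2 lower in *X33*-YPA, and 1 higher and 5 lower in *GS115*-YPAH5x. These are 16.7% and 16.7% of the list beside 33.4% and 32.8% of all genes, and 8.33% and 41.7% beside 30.7% and 29.1%. The medians were -0.07 and -0.31. The 5 became 2 without library E and 3 without library F, and the number higher in *X33*-YPA ranged from 1 to 4 over libraries left out. BQ9382_C2-1405, thioredoxin reductase, was at 999 and 767 CPM in A and B, 455 and 460 in C and D, and 315 and 279 in E and F. It fell with log2 fold changes of -0.95 (edgeR adjusted p = 5.8e-04) and -1.57 (3.4e-05), opposite in direction to RNR-C1.

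In *X33*-YPA the rows annotated as thioredoxin missed the threshold, with log2 fold changes of -0.24 for BQ9382_C4-1260 and 0.29 for BQ9382_C4-3770. In *GS115*-YPAH5x they fell with -0.66 (edgeR adjusted p = 0.00512) and -0.51 (0.0241), and these calls were lost without library E, at adjusted p values of up to 0.0515 and 0.127 over all settings. BQ9382_C2-5940, annotated as the monothiol glutaredoxin-7, rose with 0.70 and 0.97. BQ9382_C1-5705, annotated as DRE2, which in *S. cerevisiae* takes part in assembling the iron cofactor of the small subunit, fell in *X33*-YPA with -0.49 (edgeR adjusted p = 0.00927) and had -0.05 in *GS115*-YPAH5x (0.783).

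More genes of the replication fork and of origin licensing rose than fell. In *X33*-YPA 29 of the 49 rose and 3 fell (median log2 change 0.78), and in *GS115*-YPAH5x 25 rose and 6 fell (median 0.56). The shares were 59.2% higher and 6.12% lower beside 33.4% and 32.8% of all genes, and 51.0% and 12.2% beside 30.7% and 29.1%. The number that fell became 5 in *X33*-YPA without library B, and 3 in *GS115*-YPAH5x without library F or 10 with library totals alone. BQ9382_C3-4725, annotated as TOP2, the topoisomerase that separates replicated DNA, rose with 2.87 (edgeR adjusted p = 4.5e-07) and 2.57 (1.0e-06). Another row with the same UniRef description, DNA topoisomerase 2, was not in this list. Its log2 fold changes lay 3.05 (*X33*-YPA) and 4.07 (*GS115*-YPAH5x) below those of BQ9382_C3-4725. In *GS115*-YPAH5x that row was called lower at an edgeR adjusted p under 0.05, opposite to BQ9382_C3-4725. BQ9382_C1-7550, flap endonuclease 1, which matures lagging strand fragments, rose with 2.85 and 2.20, and BQ9382_C1-7105, a clamp loader subunit annotated as RFC3/5, rose with 2.09 and 1.42. BQ9382_C4-3815, annotated as the nuclease and helicase DNA2, fell with -1.63 and -0.85. The log2 fold changes of RNR-C1 were above the highest of this list in both comparisons, and that of RNR-C2 in *X33*-YPA was close to its lowest, which was -1.89.

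Regulators of the passage from G1 to S, which in *S. cerevisiae* include the factors that drive *RNR1*, did not move together. In *X33*-YPA 5 of the 10 rose and 2 fell, where 33.4% and 32.8% of all genes did. In *GS115*-YPAH5x 3 rose and 2 fell, where 30.7% and 29.1% of all genes did, so the share that rose was near that of all genes. The 5 became 2 without library C and 3 without library B or D. BQ9382_C1-0515, described as the DNA binding part of the SBF activator (Swi4), fell with log2 fold changes of -2.28 and -2.57. BQ9382_C1-4345, a G1 cyclin, rose with 2.25 and 1.87, and BQ9382_C4-1780, annotated as the inhibitor SIC1, rose with 0.57 and 0.71. BQ9382_C1-0210, annotated as the ubiquitin-conjugating enzyme CDC34, fell in *X33*-YPA with -0.75 and had -0.26 in *GS115*-YPAH5x (edgeR adjusted p = 0.119).

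More genes of recombination and damage repair fell than rose. In *X33*-YPA 4 of the 20 rose and 13 fell (median log2 change -0.48), and in *GS115*-YPAH5x 3 rose and 9 fell (median -0.30). The shares were 20.0% higher and 65.0% lower beside 33.4% and 32.8% of all genes, and 15.0% and 45.0% beside 30.7% and 29.1%. The number that fell in *GS115*-YPAH5x became smaller or larger when single libraries were left out, so it depends on single libraries. BQ9382_C2-5530, annotated as the damage tolerance ligase RAD18, fell with -3.03 and -1.87, and BQ9382_C1-0095, annotated as RAD57, fell with -1.29 and -0.69. BQ9382_C2-6200, annotated as RAD52, fell in *X33*-YPA with -2.45 and had -0.26 in *GS115*-YPAH5x (edgeR adjusted p = 0.433). These are among the genes that fell. Of those that rose, BQ9382_C3-4590, annotated as RAD5 and named after its values were seen, had 0.86 (edgeR adjusted p = 6.9e-04) and 0.82 (0.00124). RNR-C2, at -1.89 and -1.19, lay within the range of this list in both comparisons, and RNR-C1 lay above it. RNR-C2 also lay within the ranges of the replication list and of the G1 to S regulators in both comparisons.

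**Figure D3:**
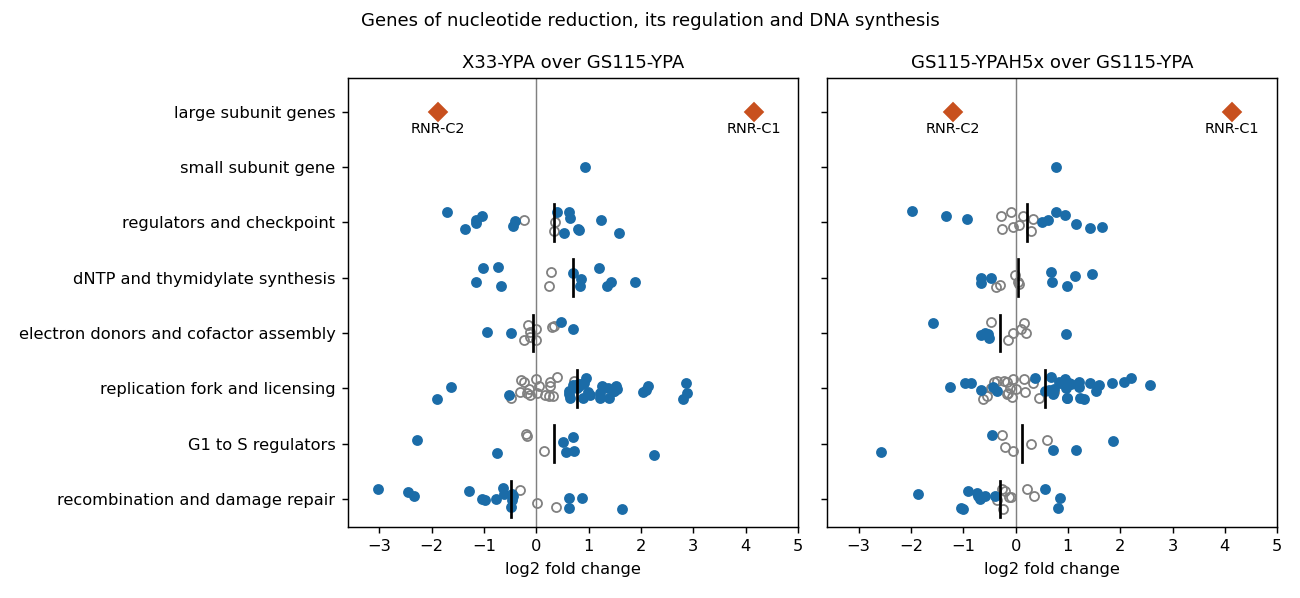
Log2 fold changes over *GS115*-YPA of *X33*-YPA (left) and *GS115*-YPAH5x (right) for the large subunit genes (diamonds, no test) and for 123 genes in 7 lists, with filled circles at an edgeR adjusted p under 0.05, open circles for the rest, and a line at each list's median. Both comparisons share the *GS115*-YPA libraries, RNR-C1 at 4.15 and 4.14 lies to the right of all list genes, and the replication list has its median at 0.78 and 0.56.

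Among all 123 list genes, *X33*-YPA had 56 that rose and 31 that fell, and *GS115*-YPAH5x had 45 and 28. These are 45.5% and 25.2% beside 33.4% and 32.8% of all genes, and 36.6% and 22.8% beside 30.7% and 29.1%. The largest log2 fold change among them was 2.87 in *X33*-YPA and 2.57 in *GS115*-YPAH5x, below the 4.15 and 4.14 of RNR-C1. The genes of DNA synthesis around the reductase thus covered changes of either sign, with the large subunit genes on opposite sides.

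The genes whose levels most resembled those of RNR-C1 over the 6 libraries were sought by the Euclidean distance between log2 CPM values, each centred on the gene's own mean. The 5 nearest were BQ9382_C3-2685, annotated as the cell wall protein Tip1p, BQ9382_C4-3315, a predicted protein, BQ9382_C1-2305, which one column annotates as RPB1 of RNA polymerase II and another leaves uncharacterized, BQ9382_C2-0030, a low-affinity Fe(II) transporter, and BQ9382_C2-2635, a ferro-O2-oxidoreductase. Their distances were 0.452, 0.510, 0.559, 0.728 and 0.759, beside a median of 4.81 over all other genes. In all 11 genes were nearer than a distance of 1. All 5 were low in A and B and high in C to F, as BQ9382_C3-2685 shows with 135 and 203 CPM in A and B, 2820 and 3028 in C and D, and 2443 and 2522 in E and F. The transporter BQ9382_C2-0030 was at 143 and 166 CPM in A and B and between 1547 and 2171 CPM elsewhere, and the oxidase BQ9382_C2-2635 at 31.9 and 38.3 CPM and between 370 and 456 CPM.

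For RNR-C2 512 genes were nearer than a distance of 1, and the median distance was 2.09. The values are centred but not scaled, so this distance grows with the size of a gene's change, and the counts of near genes do not compare how common the patterns of the large subunit genes are. The 5 nearest to RNR-C2 were BQ9382_C1-2895, annotated as the RNA cleavage and polyadenylation factor subunit YTH1, BQ9382_C2-1505, a conserved predicted protein, BQ9382_C1-4385, related to the mitochondrial protein MGR3, BQ9382_C2-3625, a repeat-containing protein, and BQ9382_C3-0800, uncharacterized. Their distances ranged from 0.309 to 0.349. BQ9382_C1-2895 was at 105 and 107 CPM in A and B, 29.5 and 26.8 in C and D, and 51.4 and 50.4 in E and F. The same order of groups, with *GS115*-YPAH5x in the middle, held for the other 4. The distance between the large subunit genes was 6.61, and the small subunit gene lay 3.81 from RNR-C1 and 2.94 from RNR-C2. These distances rest on 6 libraries that share their scaling, and ranking by Pearson's r instead kept 1 of the 5 for RNR-C1 and 0 of the 5 for RNR-C2.

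**Figure D4:**
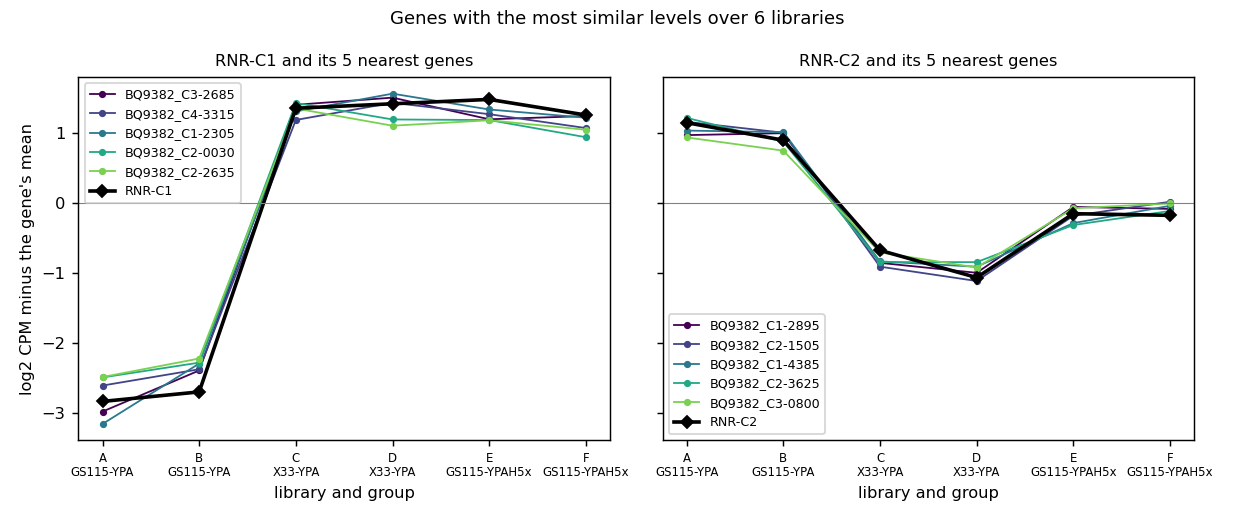
Log2 CPM minus the gene's mean in libraries A to F for RNR-C1 (left) and RNR-C2 (right), in black, and the 5 genes nearest to each by Euclidean distance, in colour. The left set steps up once between *GS115*-YPA and both other groups, and the right set is highest in *GS115*-YPA, lowest in *X33*-YPA and between them in *GS115*-YPAH5x.

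The 2 rows on each side of RNR-C1 in locus tag order did not rise with it in both comparisons. Before RNR-C1, BQ9382_C1-3080, an antiporter for arsenite and antimonite, fell by log2 values of -1.93 (*X33*-YPA, edgeR adjusted p = 4.1e-06) and -2.14 (*GS115*-YPAH5x, 3.1e-06). BQ9382_C1-3075, xylulokinase, rose in *X33*-YPA with 0.55 (edgeR adjusted p = 0.00339) and had -0.01 in *GS115*-YPAH5x. After it, BQ9382_C1-3090, the ribosomal protein S27, had 0.24 and -0.44, and BQ9382_C1-3095, a permease, had -0.48 and -0.20, of which the -0.44 alone passed the test (edgeR adjusted p = 0.0231). Further out among the rows plotted, some passed the test as higher in both comparisons and some as lower in both. The largest rise there was 1.345, in *X33*-YPA. The level of RNR-C1 was the one that was higher by more than 4 on the log2 scale among the rows plotted around it.

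Around RNR-C2, the row just after it fell as well, and the other 3 rows rose. Before RNR-C2, BQ9382_C2-5890, which the annotation calls desmoglein-3 or uncharacterized, rose with 1.20 (edgeR adjusted p = 6.7e-05) and 1.57 (1.7e-05), and BQ9382_C2-5885, the vacuolar sorting protein VPS30, rose with 1.85 and 1.46. After it, BQ9382_C2-5900, with unlike annotations as a tRNA methyltransferase and a lipid homeostasis protein, fell with -1.002 (edgeR adjusted p = 2.0e-04) and -0.56 (0.00818). Libraries A and B held 30.7 and 29.2 CPM of it, C and D 14.05 and 15.9, and E and F 19.1 and 21.7, the same order of groups as for RNR-C2. BQ9382_C2-5905, a mitochondrial GTPase, rose with 0.50 and 1.05. BQ9382_C2-5890 stood at 1614 to 5228 CPM over the libraries, and since the strand setting is not given in the sources used here, reads from overlapping neighbours could not be told apart.

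**Figure D5:**
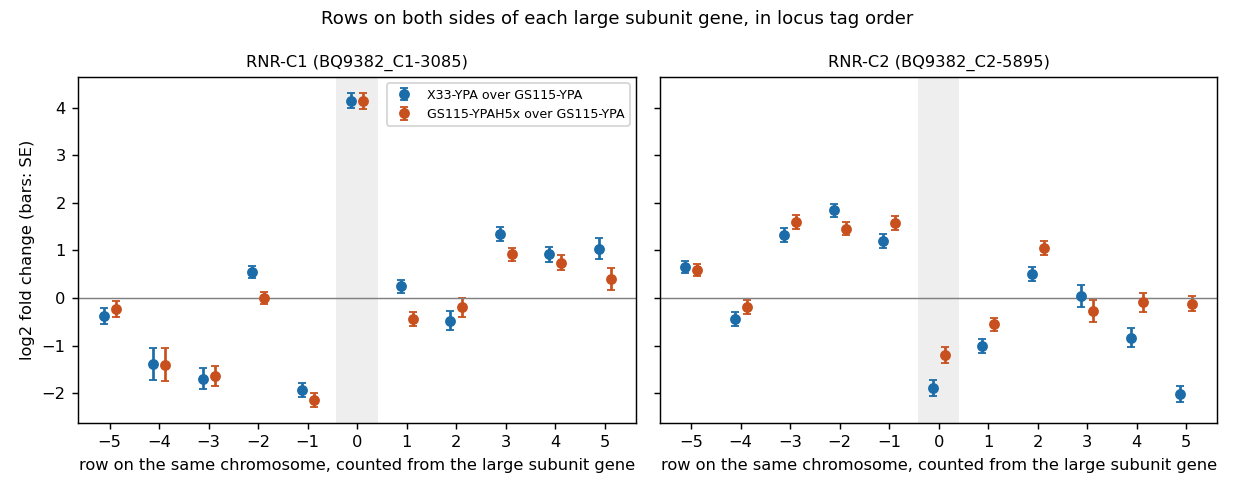
Log2 fold changes over *GS115*-YPA, with SE bars, of RNR-C1 (left) and RNR-C2 (right), shaded at 0, and of the 5 rows on each side in locus tag order, in *X33*-YPA (blue) and *GS115*-YPAH5x (orange). The row before RNR-C1 is at -1.93 and -2.14 while RNR-C1 is at 4.15 and 4.14, and the rows just before RNR-C2 lie above 0 while it lies at -1.89 and -1.19.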

How the data were processed

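Total RNA was depleted of ribosomal RNA with a kit made for bacteria, and libraries were made with NEBNext Ultra II. The authors deposited raw read counts per gene, 1 column per library, and featureCounts 1.6.4, fastp 0.19.6, bcl2fastq 2.19.0.316, DESeq2 and Bowtie2 are the tools credited in the submitters' processing notes. Build, strand setting and the version of Bowtie2 were not given in the sources used here. Every column of values was mapped to a sample by its label.

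Counts were fitted with edgeR 4.0.16 (R 4.3.3, quasi-likelihood test, TMM, filterByExpr) over all 6 libraries without covariates, with 3 residual degrees of freedom, and p-values were adjusted by Benjamini-Hochberg over 5426 genes. The fit was tested on simulated data. CPM are counts relative to the library total, scaled by TMM, and log2 CPM used a prior count of 2.

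The large subunit genes and the gene lists were chosen with earlier results of these data known. List members were picked by description. Any gene of the subunit, regulator, dNTP and electron donor lists could be named, and of the other lists the 4 with the smallest adjusted p, besides the 5 nearest genes and the 2 rows on each side. That rule left out the 10 G1 to S regulators, which were treated likewise. A gene that the rule names in the repair list is not reported here, and RAD5 of that list was named after its values were seen. Alternatives were DESeq2 1.42.0, other scalings and filters, fewer libraries and each library left out. Leaving out the 10 most abundant genes and comparing rows with equal descriptions were added after the data had been seen.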

Additional observations from a re-analysis of the deposited data

How the results depend on the processing

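Over 14 settings the log2 fold change of RNR-C1 ranged from 4.04 to 4.22 in *X33*-YPA and from 3.94 to 4.23 in *GS115*-YPAH5x over *GS115*-YPA, and from -0.10 to 0.28 between those groups. That of RNR-C2 ranged from -2.13 to -1.75, from -1.40 to -1.10 and from -0.90 to -0.42. Leaving out single libraries gave 4.04 to 4.22, 4.02 to 4.23 and -0.10 to 0.13 for RNR-C1 and -2.13 to -1.75, -1.31 to -1.10 and -0.90 to -0.51 for RNR-C2. Scaling by library totals alone gave 3.94 and 0.28 for RNR-C1 and -1.40 and -0.42 for RNR-C2 in *GS115*-YPAH5x over *GS115*-YPA and in *X33*-YPA over *GS115*-YPAH5x. With it the median of all genes moved to -0.20 and 0.29 and the share of higher genes among those called went from 51.4% to 37.7% and from 47.8% to 75.2%, so the values above are read relative to that shift. Of all genes, 369, 289 and 42 passed the fold threshold in the 3 comparisons and 3590, 3246 and 2247 at any fold. Without library C 69 in place of 42 passed between *X33*-YPA and *GS115*-YPAH5x, with a range of 35 to 69 over libraries left out.

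Over the 123 list genes, between *X33*-YPA and *GS115*-YPAH5x 23 were higher and 16 lower, against 56 and 9 with library totals alone and 7 to 36 and 9 to 18 over libraries left out, the 7 and 9 without library F and the 36 without library A or B. The number that fell in *GS115*-YPAH5x was 28 and ranged from 17, without library E, to 33. By Pearson's r 1 and 0 of the 5 nearest genes were shared. The causes were not tested. Among counts for single lists, 64 values moved by more than 1.5 times or changed to or from 0, of which 42 were in *X33*-YPA against *GS115*-YPAH5x. No paired analysis was possible because no replicate number is shared between groups, the labels naming libraries by letter. Counts per kilobase, promoter motifs and protein comparisons were not run. Library depth sets a small counting error, and with 2 libraries per group the spread between them limits precision.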

Other observations

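Rows that share a description can be set beside the large subunit genes as a description chosen after the data had been seen. Over all genes, 249 pairs of rows shared a UniRef description apart from uncharacterized ones. The median gap between the log2 fold changes of such a pair was 0.78 in *X33*-YPA and 0.71 in *GS115*-YPAH5x over *GS115*-YPA. The gap between RNR-C1 and RNR-C2 was 6.04 and 5.33, which ranked 2 in both comparisons. The pair with a wider gap in both was BQ9382_C1-1685 and BQ9382_C1-2675, described as general amino acid permeases, which take up amino acids, with 7.68 and 7.58. Opposite calls at an edgeR adjusted p under 0.05 were made for 38 pairs in *X33*-YPA, 27 in *GS115*-YPAH5x and 15 in both comparisons. Both comparisons share the *GS115*-YPA libraries. The large subunit pair was chosen for this difference, so its inclusion in these counts and its rank are no test of it. Between *X33*-YPA and *GS115*-YPAH5x its gap was 0.71, rank 66.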
